A study of Homo sapiens with 10 samples.

Results

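The genes described here are the immunoglobulin (IG) and T-cell receptor (TR) segments, the V, D, J and C genes from which the chains of antigen receptors are assembled. They were chosen by their gene type in GENCODE 29 and by measured values: each IG or TR segment gene, pseudogenes left out, that matched an Ensembl identifier of the count files and had at least 50 counts summed over the 10 libraries. Of 408 such genes in GENCODE 29, 365 matched the files and 49 reached the threshold, out of 63677 gene identifiers counted. Because the summed level chose these members, their presence and their order by level are a description and carry no test.

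The libraries came from RS4;11, an established B-cell precursor acute lymphoblastic leukaemia line that carries the KMT2A::AFF1 fusion. From it, 5 lines named VENins were grown under rising concentrations of venetoclax (VEN), an inhibitor of BCL-2, and are labelled as VEN treated, while 5 lines named VENsens were kept in the solvent DMSO and are labelled as DMSO treated. All 10 lines derive from the same parental cell line and each gave 1 library, so the p-values measure the spread between separately kept lines of a single origin. The gene counts ranged from 20631907 to 28323643 per library, and the library kit did not mark the strand.

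V(D)J recombination joins a V and a J segment, with a D segment between them in heavy, beta and delta chains, into the exon that encodes the variable part of a receptor, and splicing then links this exon to a constant gene. B-cell precursors rearrange the heavy chain locus IGH before the light chain loci IGK and IGL, and leukaemias of this stage often also carry rearranged TR loci. Unrearranged segments can be transcribed as well, as germline or sterile transcripts, and counts on a segment do not tell these from transcripts of a joined gene.

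The segments on which the results turn are shown first, as GENCODE 29 gives their transcripts. The 3 IGH J members are printed whole, with the letters TGGGGNNNNGG in capitals, which hold the conserved tryptophan and glycine codons and were found on the coding strand of 6 of 6 IGH J segments and of 10 of all 97 J segments. IGHJ6 and IGHJ5 were the most abundant J members and IGHJ4 lay just inside the threshold.
IGHJ6: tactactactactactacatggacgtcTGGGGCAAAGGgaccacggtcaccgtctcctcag
IGHJ5: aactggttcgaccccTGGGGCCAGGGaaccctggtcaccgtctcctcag
IGHJ4: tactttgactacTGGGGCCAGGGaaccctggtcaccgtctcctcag

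The most abundant TRA J member is printed with TTNGGNNNNGG in capitals, which covers the phenylalanine and glycine codons of most other J segments and was found in 72 of 79 TR J segments and in 84 of all 97.
TRAJ18: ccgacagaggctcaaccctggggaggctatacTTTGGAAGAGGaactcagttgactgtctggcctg

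Of the V members the last 30 bases are printed, the end at which a V segment is joined. The capitals TGTGC include the codon of the conserved cysteine, and these letters stood in the last 30 bases of 137 of 250 V segments and of 26 of the 35 V members. IGHV3-20 and TRDV2 were the most abundant IG and TR V members. TRAV29DV5 and TRAV36DV7 are alpha segments that can also be joined in delta chains, and they and IGHV3-21 are shown because their levels varied widely between lines.
IGHV3-20: ggacacggccttgtatcacTGTGCgagaga
IGHV3-21: gaggacacggctgtgtattacTGTGCgaga
TRDV2: gaagggtcttactacTGTGCctgtgacacc
TRAV29DV5: actctgcagtgtacttcTGTGCagcaagcg
TRAV36DV7: actcggccatctacctcTGTGCtgtggagg

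By locus, the 49 members were 20 of IGH, 3 of IGK, 7 of IGL, 11 of TRA, 1 of TRD and 5 of TRG, with 2 IG V segments that lie outside the loci. By segment type they were 35 V, 6 J and 8 C genes. No D segment was among them, since all 36 matched D segments were at 0 in every library. No TRB gene was among them either, as the 43 matched TRB segments had 36 counts in sum over the 10 libraries and TRBC1 and TRBC2 were at 0. Of the 365 matched segments, 171 had no count in any library. TRAC, the alpha constant gene, was not analysed here.

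The members held 304783 counts, and their share of the gene counts was 0.124% ± 0.00751 (SD, n = 5) in VENsens lines and 0.13% ± 0.0159 (SD, n = 5) in VENins lines. The range over the 10 libraries was 0.116% to 0.154%, and the highest value was that of VENins line 5. IGH took 86% of the member counts, TRDV2 6.87%, IGL 5.46%, TRA 0.909%, TRG 0.407% and IGK 0.211%. Without IGHM, the constant gene of the mu heavy chain, 30.7% of the member counts were left.

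Levels are given as CPM, counts per 1000000 gene counts of a library after scaling with TMM factors. Compared between genes per kilobase of exon, the mean level was highest for IGHM at 472 CPM per kilobase, followed by IGHJ6 at 274, IGHJ5 at 180, TRDV2 at 168, IGHV3-20 at 164, IGLV4-3 at 128, IGHV6-1 at 82.9, TRAJ18 at 38.7, IGHD at 36 and IGLC3 at 30.7. The J segments in this order span 49 to 66 bases. A read of 75 bases that was counted on any of the 6 J members ran past the segment, so that their level per kilobase is not on the same footing as that of V and C genes. At the other end, 23 of the 49 members had fewer than 200 counts over all libraries.

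**Figure D1:**
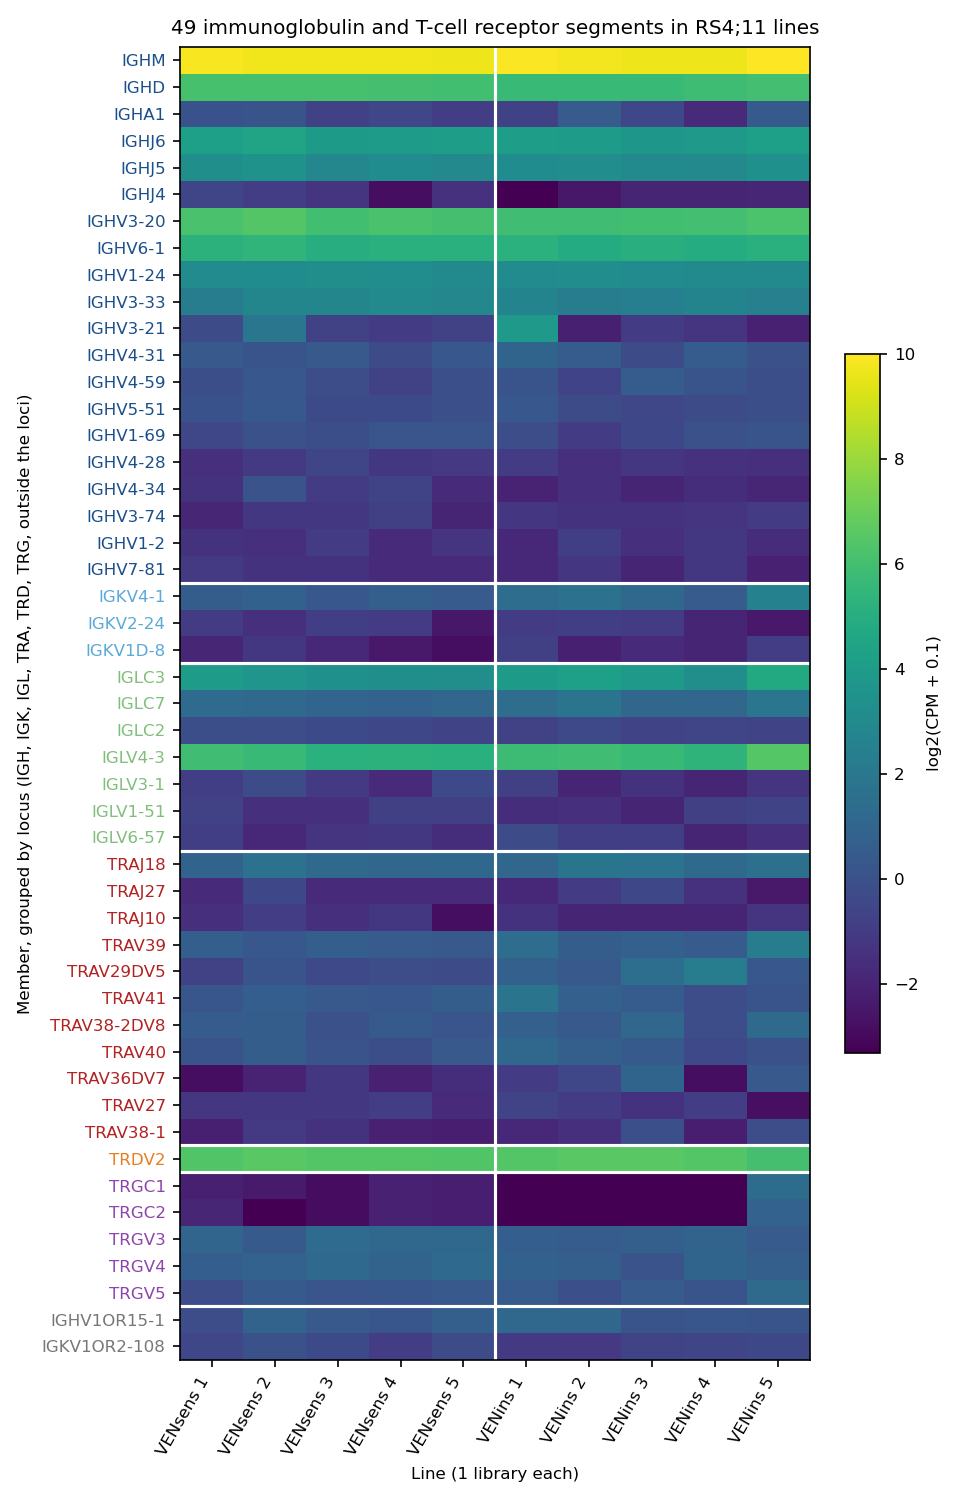
Heat map of log2(CPM + 0.1) for the 49 members (rows, grouped by locus and named in its colour) in the 5 VENsens and 5 VENins lines (columns, 1 library each). IGHM, IGHD, IGHV3-20, IGLV4-3 and TRDV2 are high in all 10 lines, while IGHV3-21 is highest in VENins line 1 and TRGC1 and TRGC2 in VENins line 5.

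Just inside the threshold were TRGC2 with 50 counts, IGKV1D-8 with 51 and IGHJ4 with 54, and just outside it were IGHV3-43 with 43, IGHG3 with 42 and TRAJ1 with 42. A total near 50 over 10 libraries leaves few counts per library. Of the 49 members, 32 passed the filter on low counts and were tested, and 17 were not: IGHJ4, IGHV1-2, IGHV3-74, IGHV4-28, IGHV4-34, IGHV7-81, IGKV1D-8, IGKV2-24, IGLV3-1, IGLV6-57, TRAJ10, TRAJ27, TRAV27, TRAV36DV7, TRAV38-1, TRGC1 and TRGC2. Members that pass such a filter through the group in which they are high are bound to differ, so counts over the tested members describe them only.

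In edgeR's quasi-likelihood test with the line number as a block, 1 member had a Benjamini-Hochberg adjusted p under 0.05, TRAV29DV5, beside 33 of 16756 genes tested (0.197%). It was higher in VENins lines, as were 6 of those 33 genes (0.0358% of the genes tested), and the other 27 were lower. At an unadjusted p under 0.05 there were 9 of the 32 tested members, 7 higher and 2 lower in VENins lines, where 16.2% of all tested genes reached that level. The log2 fold change was above 0 for 17 and below 0 for 15 of the tested members, with a median of 0.11 beside 0.00 for all tested genes. The 5 VENins lines did not overlap the 5 VENsens lines in TRAV29DV5 alone among the tested members, while 4.66% of all tested genes had groups that did not overlap.

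**Figure D2:**
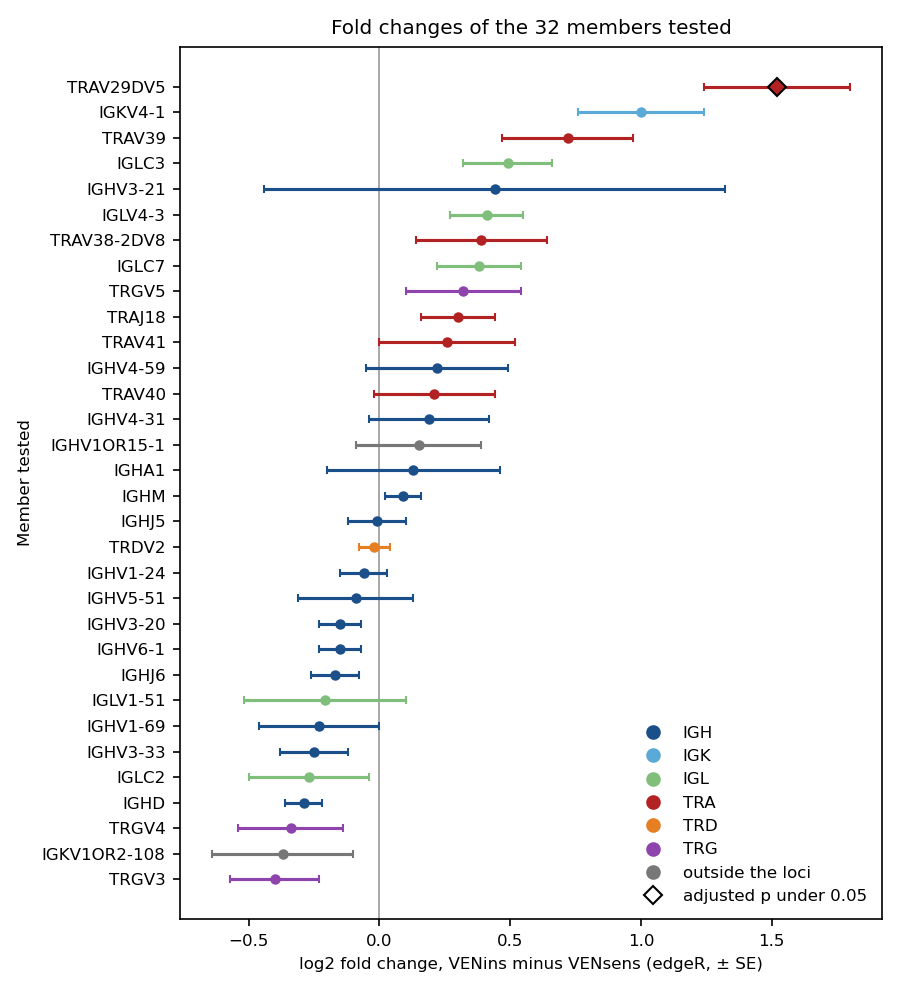
Log2 fold changes (VENins minus VENsens, edgeR, bars ± SE) of the 32 members tested, coloured by locus. TRAV29DV5, drawn as a diamond, is the member with an adjusted p under 0.05, and the other estimates lie between -0.40 and 1.00.

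The called member lies in the T-cell receptor alpha locus. TRAV29DV5 (ENSG00000211810, in GENCODE 29 on GRCh38 chr14:22163238-22163870, + strand) had 0.499, 1.02, 0.669, 0.78 and 0.758 CPM in VENsens lines 1 to 5 and 1.6, 1.23, 2.68, 4.68 and 1.13 CPM in VENins lines 1 to 5. Each VENins line was above each VENsens line, with VENins lines 3 and 4 the highest and lines 2 and 5 the closest to the VENsens range. The means were 0.745 ± 0.188 and 2.26 ± 1.48 CPM (SD, n = 5 each), and the log2 fold change in edgeR was 1.52 with an SE of 0.28 and an adjusted p of 0.0419. This value rests on 364 counts in all, 12 in the lowest library and 119 in the highest.

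The call of TRAV29DV5 did not hold throughout. Its edgeR adjusted p was 0.0872 without line pair 2, 0.115 without pair 3 and 0.0563 without pair 5, and DESeq2 gave it no adjusted p in either model because of its low mean count. The edgeR log2 fold change without a pair lay between 1.17 and 1.81.

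Of the other TRA V members none was called in this test. TRAV36DV7, which did not pass the filter on low counts, had 0.0416, 0.145, 0.352, 0.13 and 0.239 CPM in VENsens lines 1 to 5 and 0.423, 0.613, 1.83, 0.0393 and 1.22 CPM in VENins lines 1 to 5. VENins lines 1, 2, 3 and 5 were above all VENsens lines and VENins line 4 was the lowest of all 10, so that the groups overlapped. VENins line 4 and VENsens line 1 had 1 count each.

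TRAV38-1, also untested, had 0.12 to 0.388 CPM in VENsens lines and 0.188, 0.245, 0.854, 0.118 and 0.784 CPM in VENins lines 1 to 5. TRAV38-2DV8 had 0.881 to 1.4 CPM in VENsens lines and 1.6, 1.23, 1.99, 0.786 and 2.31 CPM in VENins lines 1 to 5. In these neighbouring segments, as in TRAV36DV7, VENins lines 3 and 5 were the highest of the 10 lines and VENins line 4 was the lowest. For TRAV36DV7 and TRAV38-1 that lowest place rests on scaling alone, as VENins line 4 and VENsens line 1 had equal counts, 1 and 3.

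TRAV39, the most abundant TRA V member, had 1.54, 1.11, 1.51, 1.3 and 1.2 CPM in VENsens lines 1 to 5 and 2.63, 1.43, 1.59, 1.3 and 4.88 CPM in VENins lines 1 to 5. Lines 5 and 1 of VENins stood apart, line 3 was just above the VENsens range and lines 2 and 4 lay within it. The log2 fold change was 0.72 (SE 0.25), with an edgeR adjusted p of 0.183. Without line pair 5 the log2 fold change was 0.31, with an edgeR adjusted p of 0.458. TRAV40 and TRAV41, the last of the 8 TRA V members along the locus, were highest in VENins line 1, at 2.11 and 3.34 CPM, against 0.824 to 1.4 and 1.08 to 1.5 CPM in VENsens lines. In VENins lines 4 and 5 they were among or below the lower VENsens lines, at 0.668 and 0.871 CPM for TRAV40 and 0.786 and 1 CPM for TRAV41. TRAV27, the first of these 8 members, had 0.199 to 0.433 CPM in VENsens and 0.0436 to 0.564 CPM in VENins lines.

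Summed, the 8 TRA V members had 5.99, 7.32, 6.2, 5.98 and 6.22 CPM in VENsens lines and 12.4, 8.26, 11.9, 8.8 and 12.2 CPM in VENins lines 1 to 5. Each VENins sum was above each VENsens sum, a description that carries no test, as the members were chosen with results known and TRAV36DV7 and TRAV38-1 reached 50 counts mainly through VENins lines. The order rests on TRAV29DV5, since without it the sum was 4.13 CPM in VENins line 4, below the 5.2 to 6.3 CPM of the VENsens lines, and 7.03 to 11.1 CPM in the other VENins lines. The segments that made up this sum differed from line to line. TRAV29DV5 took 53.1% of it in VENins line 4 and 22.6% in line 3, TRAV39 took 39.9% in line 5, and TRAV41 took 26.8% in line 1 and 19.3% in line 2. In VENsens lines no segment took more than 25.7%, and TRAV29DV5 took 8.33% to 13.9%.

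**Figure D3:**
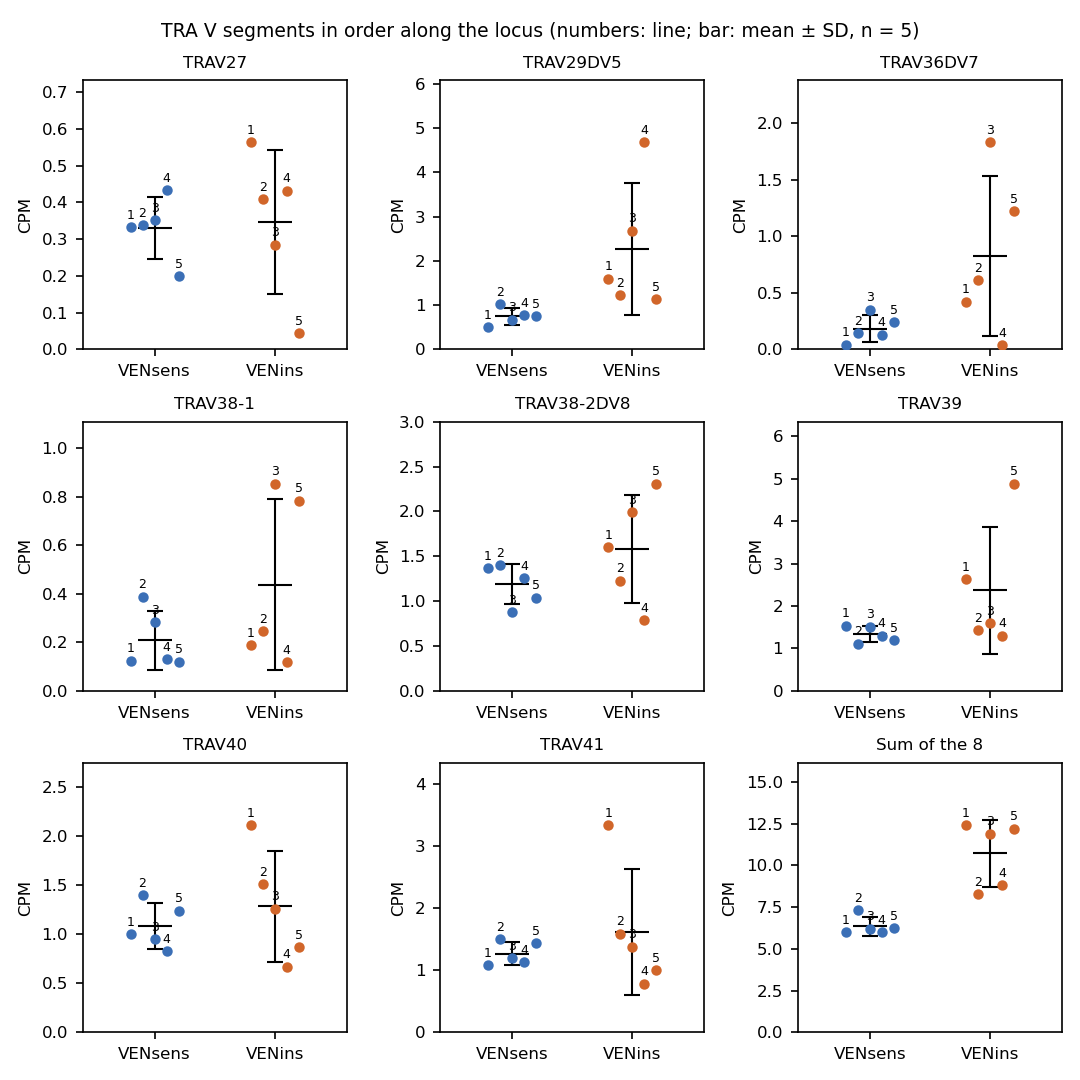
CPM of the 8 TRA V members, in order along the locus, and of their sum in each line (points, numbered by line; bars, mean ± SD, n = 5). TRAV29DV5 is highest in VENins line 4, TRAV36DV7 in line 3, TRAV39 in line 5 and TRAV41 in line 1.

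The 3 TRA J members were TRAJ18 with 612 counts, TRAJ27 with 73 and TRAJ10 with 56. TRAJ18 had 1.79, 3.05, 2.36, 2.04 and 2.19 CPM in VENsens lines 1 to 5 and 2.02, 3.51, 3.25, 2.36 and 2.96 CPM in VENins lines 1 to 5. The groups overlapped, with an edgeR log2 fold change of 0.30 (SE 0.14) and an adjusted p of 0.287. Of the 54 matched TRA J segments 43 had at least 1 count.

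In the delta locus TRDV2, a V segment used in delta chains, was the sole member and held 20936 counts, while TRDC and all matched delta D and J segments were at 0. It had 84.8, 97.7, 85.7, 87.9 and 82.9 CPM in VENsens lines 1 to 5 and 85, 96.9, 98, 86.2 and 67.9 CPM in VENins lines 1 to 5. VENins line 5 was the lowest of the 10 lines and the others overlapped, with an edgeR log2 fold change of -0.02 (SE 0.06) and an adjusted p of 0.893. GENCODE 29 places AC244502.1 over TRDV2 on the other strand, and without strand reads of the pair cannot be told apart where they overlap. AC244502.1 itself had 21.6 to 27 CPM in VENsens lines and 38.2, 35.3, 30.3, 21.1 and 40.3 CPM in VENins lines 1 to 5.

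The gamma locus had 5 members, the V segments TRGV3, TRGV4 and TRGV5 and both constant genes. TRGC1, a gamma constant gene, had 3, 2, 1, 3 and 3 counts in VENsens lines 1 to 5 and 0, 0, 0, 0 and 57 counts in VENins lines 1 to 5. TRGC2 had 4, 0, 1, 3 and 3 counts in VENsens lines and 0, 0, 0, 0 and 39 counts in VENins lines. Both genes reached the threshold through VENins line 5, where they stood at 2.48 and 1.7 CPM. A count of 0 allows up to 3 counts, or 0.118 to 0.142 CPM in VENins lines 1 to 4, a limit that covers counting error only. TRGC1 and TRGC2 share sequence, as 11.3% and 31.9% of the 75-base windows of their transcripts also stand in another IG or TR transcript. Reads from such windows may have been set aside, so that the levels of both genes are uncertain.

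Of the gamma V segments, TRGV5 was also highest in VENins line 5, at 2.35 CPM against 0.79 to 1.32 CPM in the other lines. TRGV3 had 1.91, 1.26, 2.39, 2.17 and 2.07 CPM in VENsens lines and 1.46, 1.35, 1.51, 1.77 and 1.31 CPM in VENins lines 1 to 5. VENsens line 2 was the lowest of all and the other VENsens lines lay above the VENins lines, with an edgeR log2 fold change of -0.40 (SE 0.17) and an adjusted p of 0.253. For TRGV4 the log2 fold change was -0.34 (SE 0.20), with an edgeR adjusted p of 0.417, and -0.13 without line pair 3. GENCODE 29 places the 3 gamma V members within the antisense gene TRG-AS1, which was not analysed here.

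The heavy chain locus gave the most abundant members. IGHM (ENSG00000211899) had 939, 843, 832, 837 and 808 CPM in VENsens lines 1 to 5 and 968, 886, 799, 803 and 1121 CPM in VENins lines 1 to 5. The groups overlapped and VENins line 5 was the highest, with an edgeR log2 fold change of 0.09 (SE 0.07) and an adjusted p of 0.533. Without line pair 5 the log2 fold change was -0.00.

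IGHD (ENSG00000211898), the constant gene of the delta heavy chain, which lies next to IGHM and is made by alternative splicing of the same primary transcript, had 69.5, 70.1, 69.2, 67.3 and 62.1 CPM in VENsens lines 1 to 5 and 50, 51.2, 51.9, 58.7 and 64.7 CPM in VENins lines 1 to 5. VENins line 5 overlapped the VENsens range and the other VENins lines lay below it. The edgeR log2 fold change was -0.29 (SE 0.07) with an adjusted p of 0.0974, and DESeq2 with the same block called IGHD as its only member, at an adjusted p of 0.0349, among 217 of the 12857 genes with an adjusted p (1.69%).

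Within each library, IGHD had 7.4, 8.31, 8.31, 8.04 and 7.68 counts per 100 IGHM counts in VENsens lines and 5.17, 5.79, 6.5, 7.31 and 5.77 in VENins lines 1 to 5. The ratio was lower in each VENins line than in each VENsens line, with VENins line 4 close to VENsens line 1. It was chosen after its values were seen and was not tested. The third IGH constant member, IGHA1, had 0.439 to 1.02 CPM in VENsens and 0.196 to 1.31 CPM in VENins lines. IGHA1 shared 17.3% of its windows, and IGHA2 was the gene that shared the most with it.

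Of the IGH J members, IGHJ6 had 18.4, 22, 15, 16.1 and 17 CPM in VENsens lines and 17.4, 15.7, 13.3, 14 and 18.2 CPM in VENins lines 1 to 5. The groups overlapped, with an edgeR log2 fold change of -0.17 (SE 0.09) and an adjusted p of 0.344, and -0.09 without line pair 2. IGHJ5 had a log2 fold change of -0.01 (SE 0.11). IGHJ4 had 14, 9, 9, 1 and 7 counts in VENsens and 0, 2, 4, 4 and 4 counts in VENins lines 1 to 5, and was not tested.

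Among the 14 IGH V members, IGHV3-20, IGHV6-1 and IGHV1-24 were the most abundant in CPM. IGHV3-20 had 72.9, 84.9, 62.6, 71.9 and 66.2 CPM in VENsens lines and 61, 60.6, 61.9, 64.6 and 74.9 CPM in VENins lines 1 to 5. IGHV6-1, the V segment nearest to the D segments, had 31.8 to 42.2 CPM in VENsens and 29 to 36 CPM in VENins lines. For both the groups overlapped, with an edgeR log2 fold change of -0.15 (SE 0.08 each) and adjusted p-values of 0.376 and 0.374. Without line pair 2 these log2 fold changes were -0.06 and -0.05, and without pair 5 that of IGHV3-20 was -0.23. IGHV1-24 varied least, between 7.97 and 9.37 CPM over the 10 lines.

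IGHV3-21 (ENSG00000211947), chosen after its values were seen, had 0.749, 3.59, 0.493, 0.39 and 0.519 CPM in VENsens lines 1 to 5 and 14.8, 0.123, 0.407, 0.314 and 0.131 CPM in VENins lines 1 to 5. VENins line 1, with 315 counts, stood 121-fold above VENins line 2, the lowest, whose 3 counts leave the exact ratio uncertain. VENsens line 2 was the next highest. The edgeR log2 fold change was 0.44 with an SE of 0.88 and an adjusted p of 0.858, and it was 1.94 without line pair 2. It was 1.47 in edgeR without the block and -0.75 in DESeq2 with the block, so that its direction depends on the fit. Without pair 1 the gene did not pass the filter. For each 100 counts of IGHV3-20, the more abundant V segment of the same family, there were 24.2 counts of IGHV3-21 in VENins line 1 and 0.175 to 4.22 in the other lines.

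Some IGH V counts are uncertain because segments of a family share sequence. The share of 75-base windows that also stand in another IG or TR transcript was 68.6% for IGHV1-69, 50.8% for IGHV4-59 and 49% for IGHV3-33. The genes that shared the most windows with them were IGHV1-69D, IGHV4-61 and IGHV3-30. The share was 100% for IGHV1OR15-1, a V segment outside the loci, which had 0.79 to 1.79 CPM in VENsens and 1 to 2.11 CPM in VENins lines. The other member outside the loci, IGKV1OR2-108, had a log2 fold change of -0.37 (SE 0.27), with an edgeR adjusted p of 0.522, and -0.17 and -0.56 without line pairs 2 and 4. For 17 members no window was shared, among them IGHM, IGHD, IGHV6-1, IGLV4-3, IGKV4-1, TRDV2 and TRAV29DV5.

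In the lambda light chain locus, IGLV4-3 and IGLC3 were the most abundant members. IGLV4-3 had 59.5, 52.7, 36.7, 37 and 34.8 CPM in VENsens lines 1 to 5 and 55.9, 60.6, 49.5, 40.6 and 90.3 CPM in VENins lines 1 to 5. IGLC3, a lambda constant gene, had 16.2, 12.4, 10.2, 9.8 and 9.49 CPM in VENsens lines and 15.4, 18.1, 14, 9.43 and 27.1 CPM in VENins lines 1 to 5. Both were highest in VENins line 5, and VENsens lines 1 and 2 were above the other VENsens lines. The groups overlapped in both genes, and for IGLC3 VENins line 4 was the lowest of all lines.

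The edgeR log2 fold change was 0.41 (SE 0.14, adjusted p 0.186) for IGLV4-3 and 0.49 (SE 0.17, adjusted p 0.18) for IGLC3, and without line pair 5 these were 0.17 and 0.23. For each 100 counts of IGLV4-3 there were 23.2 to 30 counts of IGLC3 over the 10 lines, with group means of 26.4 and 27.8. IGLC7, a further lambda constant gene, had 1.73 to 2.41 CPM in VENsens and 2 to 3.66 CPM in VENins lines, with an edgeR log2 fold change of 0.38 (adjusted p 0.25), which was 0.25 without pair 5. IGLC2 had 154 counts and shared 47.7% of its windows. IGLC3 was the gene that shared the most with it. Reads from shared windows may have been set aside, so that the levels of IGLC2 and IGLC3 are uncertain.

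In the kappa light chain locus the constant gene IGKC had 1 count over all 10 libraries, and IGKV4-1 was the most abundant member. IGKV4-1, the V segment nearest to the J segments, had 1.41, 1.65, 1.13, 1.52 and 1.32 CPM in VENsens lines 1 to 5 and 2.58, 3.07, 2.2, 1.3 and 5.79 CPM in VENins lines 1 to 5. VENins lines 1, 2, 3 and 5 were above all VENsens lines and VENins line 4 was among them. The edgeR log2 fold change was 1.00 with an SE of 0.24 and an adjusted p of 0.0878. It was 1.25 with an adjusted p of 0.00291 without line pair 4, and 0.66 with an adjusted p of 0.167 without pair 5.

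**Figure D4:**
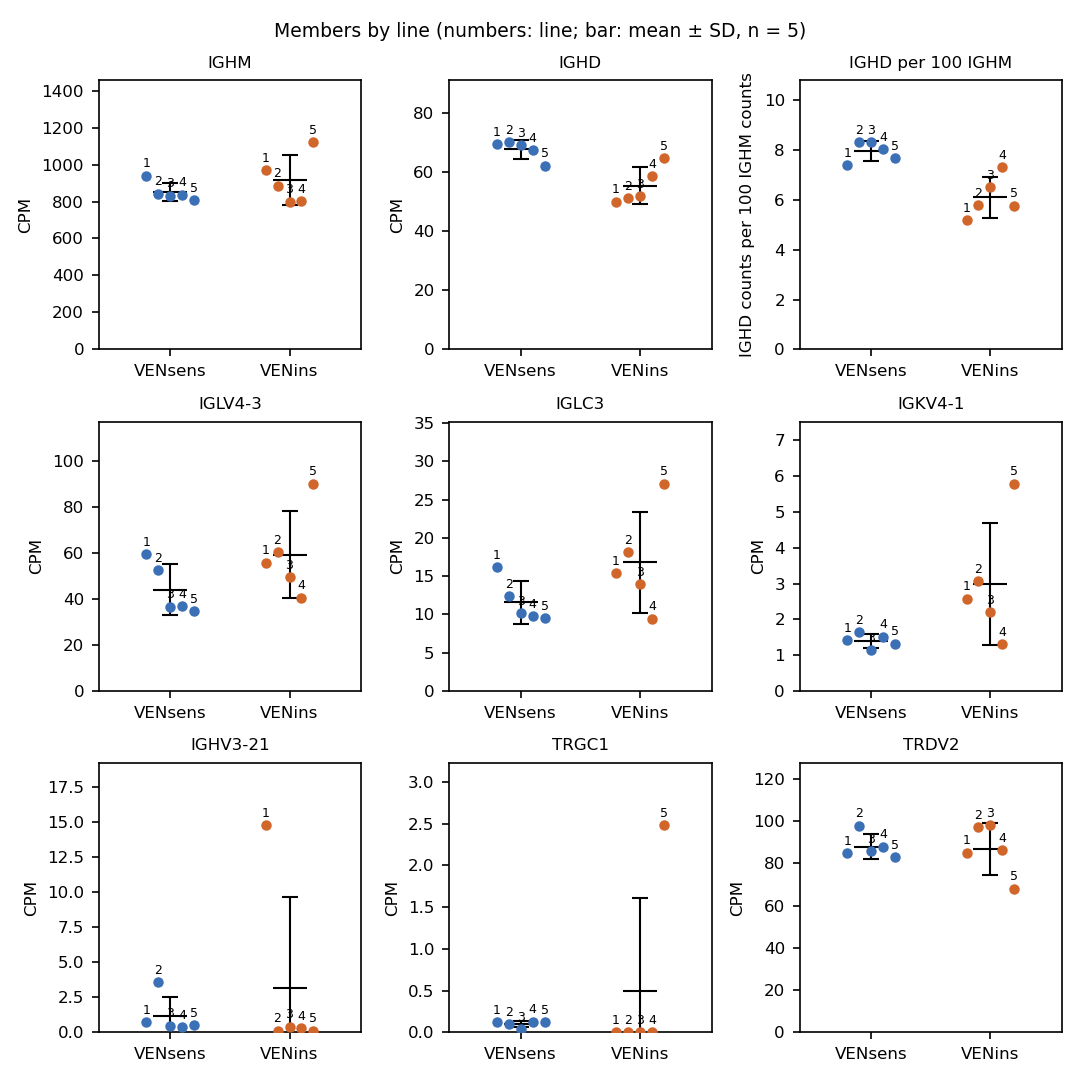
CPM of 8 members, and IGHD counts per 100 IGHM counts, in each line (points, numbered by line; bars, mean ± SD, n = 5). VENins line 5 is highest for IGHM, IGLV4-3, IGLC3, IGKV4-1 and TRGC1 and lowest for TRDV2, and VENins line 1 is highest for IGHV3-21.

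The spread between lines was measured as the ratio of the highest to the lowest CPM over the 10 lines, for genes with a mean of at least 50 counts. Its median was 1.6 for the 14 members above this limit and 1.31 for the 13063 tested genes above it. The 2 sets were not matched in depth beyond this limit, so their medians are a description. The 5 members with the largest ratio were IGKV4-1 at 5.14, IGLC3 at 2.87, IGLV4-3 at 2.59, IGLC7 at 2.11 and TRAJ18 at 1.97. Of the 13063 genes, 99.8%, 99.3%, 99.1%, 97.5% and 96.3% had smaller ratios. These shares were not matched for depth. IGKV4-1, IGLC7 and TRAJ18 held 518, 574 and 612 counts over the 10 libraries, near the lower limit, where counting error may widen the ratio. IGHM, IGHD and IGHV3-20 each had a ratio of 1.4, and IGHV1-24 had 1.18.

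**Figure D5:**
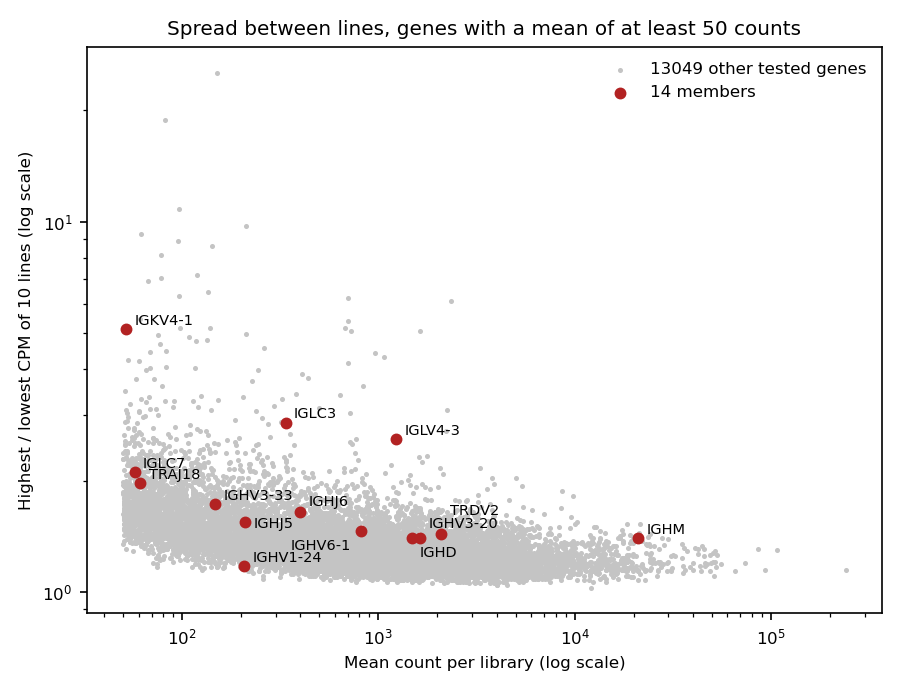
Ratio of the highest to the lowest CPM over the 10 lines against the mean count per library, both on log scales, for tested genes with a mean of at least 50 counts. The 14 members (red) include IGKV4-1 at 5.14 and IGHV1-24 at 1.18, beside a median of 1.31 for all 13063 genes.

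Pseudogenes of the same loci were counted as well and lie outside the rule. The 7 with at least 50 counts summed to 71.5 ± 2.61 CPM (SD, n = 5) in VENsens lines and 74.4 ± 7.15 CPM (SD, n = 5) in VENins lines. IGHV5-78 led them with 48.6 to 52.9 CPM in VENsens and 48.3 to 63.3 CPM in VENins lines, and IGHJ3P followed with 14.4 to 18.4 and 12.8 to 19.5 CPM.

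Cell type markers were read beside the label of a B-cell precursor line. Of 12 B-cell precursor markers, 11 were tested, and their summed level was 3710 to 3804 CPM in VENsens and 3632 to 4068 CPM in VENins lines. The most abundant was IGLL1, a part of the surrogate light chain, at a mean of 723 CPM, while CD34, a marker of early precursors, was at or below 0.0969 CPM in every line. Of 16 T-cell markers, 10 were under 1 CPM in every line, among them CD3D, CD3G, CD2, CD4 and CD8B, and CD8A was at 0. Their sum was 442, 450, 430, 436 and 441 CPM in VENsens lines and 396, 431, 403, 424 and 492 CPM in VENins lines 1 to 5, led by the signalling kinases ZAP70 and LCK with means of 343 and 77.4 CPM. Of the CD3 chains, CD3D was at or below 0.118 CPM, CD3G at or below 0.0484 and CD247 at or below 0.55 in every line, while CD3E had 0.651 to 1.04 CPM.

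Of all the marker lists, PAX5 was the gene with an edgeR adjusted p under 0.05. Of 6 NK-cell markers 4 were under 1 CPM in every line, with NKG7 leading at a mean of 51.6 CPM, KLRD1 and NCR1 at 0, and sums of 47.1 to 54.2 CPM in VENsens and 49.7 to 65.7 CPM in VENins lines. Of 8 myeloid markers 5 were under 1 CPM, with CSF1R leading at 9.51 CPM and sums of 14.6 to 18.1 and 14.7 to 20 CPM. Of 11 markers of mature B and plasma cells 5 were under 1 CPM, XBP1 and MZB1 led with means of 553 and 310 CPM, and the sums were 819, 838, 858, 837 and 844 CPM in VENsens lines and 915, 944, 861, 839 and 1007 CPM in VENins lines 1 to 5. Among the VENins lines, line 5 was the highest and line 4 the lowest, as they were for IGKV4-1, IGLV4-3 and IGLC3. IGHM, IGHD and IGHV3-20 were also highest in VENins line 5 but were lowest in VENins lines 3, 1 and 2. The order with line 5 highest and line 4 lowest is not particular to this list, as it also held for the sums of B-cell precursor and NK-cell markers. T-cell and myeloid sums were highest in VENins line 5 too, but lowest in lines 1 and 2. All 6 tested markers of mature B and plasma cells had a log2 fold change above 0, with a median of 0.13. Of these, 2 had an unadjusted edgeR p under 0.05, beside 16.2% of all tested genes. These were JCHAIN and MZB1, with edgeR adjusted p-values of 0.161 and 0.284. The part of these markers in the levels of the IG members was not tested. In these bulk libraries, fewer cells that express a gene and less of its RNA per cell cannot be told apart.

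Other genes of the pathway were read from lists of their roles, in the same edgeR test. Of 15 genes of V(D)J recombination and end joining, all tested, 0 were called in either direction by edgeR, with a median log2 fold change of 0.02. At an unadjusted p under 0.05 there were 4, beside 16.2% of all tested genes, and DESeq2 with the block called 1, HMGB2, beside 1.69% of all genes with an adjusted p. RAG1, which with RAG2 makes the recombinase, had 201, 263, 224, 231 and 239 CPM in VENsens lines and 225, 155, 216, 217 and 130 CPM in VENins lines 1 to 5. VENins lines 2 and 5 were the lowest and the other lines overlapped, and RAG2 was also lowest in these lines, at 54.4 and 51.7 CPM against 66 to 75.9 CPM elsewhere. DNTT, which adds bases at the joints, was at 27.3 CPM in VENins line 4 and between 1.08 and 8.31 CPM in the other lines. HMGB2, a cofactor of the recombinase and the most abundant gene of the list, had means of 1365 ± 99.6 and 1586 ± 76.9 CPM, with an adjusted p of 0.0889, and PRKDC, a kinase of end joining, had 589 ± 15.2 and 523 ± 34.9 CPM, with an adjusted p of 0.14. In both the groups did not overlap, beside 4.66% of all tested genes, with HMGB2 higher and PRKDC lower in VENins lines.

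Of 14 genes of the surrogate light chain and the pre-B-cell receptor, all tested, 0 were called by edgeR or by DESeq2 with the block and 7 had an unadjusted edgeR p under 0.05, beside 16.2% of all tested genes, with a median log2 fold change of -0.03. IGLL5, which lies within the lambda locus, had 14.1, 13.5, 12.2, 9.32 and 11.7 CPM in VENsens lines and 7.99, 4.58, 8.75, 9.86 and 6.58 CPM in VENins lines 1 to 5. VENins line 4 overlapped the lowest VENsens line, with an edgeR log2 fold change of -0.70 (SE 0.16) and an adjusted p of 0.0783. VPREB1, which pairs with IGLL1 in the surrogate light chain, had means of 562 ± 11.5 and 619 ± 50 CPM.

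Of 24 transcription factors and related regulators with known roles at IG and TR loci, 23 were tested, 0 were called higher and 1 was called lower in VENins lines by edgeR, with a median log2 fold change of -0.01. At an unadjusted p under 0.05 there were 9, beside 16.2% of all tested genes, and DESeq2 with the block called 2, PAX5 and IRF4, beside 1.69%. The gene called by edgeR was PAX5, the B-lineage commitment factor, with 782, 827, 713, 804 and 790 CPM in VENsens lines and 632, 584, 615, 676 and 647 CPM in VENins lines 1 to 5. Each VENins line was below each VENsens line, with an edgeR log2 fold change of -0.31 (SE 0.05) and an adjusted p of 0.0272. IRF4, a factor of light chain rearrangement, had means of 216 ± 4.79 and 183 ± 8.69 CPM, with an adjusted p of 0.0691. The groups of PAX5, IRF4, STAT5A and STAT5B did not overlap, as in 4.66% of all tested genes, and these 4 were lower in VENins lines. TCF12 was the most abundant gene of the list, with a mean of 1072 CPM.

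Of 9 genes of CD3 and the pre-T-cell receptor, 6 were tested and 0 called by edgeR or by DESeq2 with the block, 0 had an unadjusted edgeR p under 0.05, and the median log2 fold change was -0.03. PTCRA, the pre-T alpha chain, had 5.59 to 8.28 CPM in VENsens and 5.11 to 8.19 CPM in VENins lines. Of 26 genes inside or beside the loci, 23 were matched, 16 were tested and 0 called by edgeR or by DESeq2 with the block, with 3 at an unadjusted edgeR p under 0.05, beside 16.2% of all tested genes, and a median log2 fold change of 0.02, and ADAM6, FAM30A, LINC00221, PRSS1, ZNF280A and GGTLC2 were listed at 0 in every library. DAD1, which lies beside the alpha constant region, had means of 361 ± 15 and 392 ± 18.9 CPM, and BCR, which lies beyond the lambda locus, had 175 ± 8.33 and 172 ± 10.7 CPM. ABHD4 had means of 257 ± 6.09 and 226 ± 15.6 CPM, with an edgeR adjusted p of 0.12. It was lower in VENins lines and its groups did not overlap, as in 4.66% of all tested genes.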

How the data were processed

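RNA of 10 RS4;11 lines, 5 VENsens and 5 VENins with 1 library each, was sequenced as single-end reads of 75 bases. The authors deposited raw counts per Ensembl gene for each library, and the submitters' processing notes name bcl2fastq 2.20.0.422, Bowtie2 2.3.5.1, SAMtools 1.9, HTSeq 0.9.1 and hg19 (GRCh37). Gene counts were 52.7% to 54.2% of the reads in each file. Reads set aside for low alignment quality were 24.6% to 26.2%, and segments with near-identical copies can lose reads there. Reads on no gene, on several genes or not aligned stayed out of library sizes and tests.

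Gene types, lengths and sequences came from GENCODE 29 (GRCh38), matched by identifier only, since the counting used another build. Counts were tested in R 4.3.3 with edgeR 4.0.16, and with DESeq2 1.42.0 as an alternative. The edgeR fit used filterByExpr with a minimum count of 10, TMM, the quasi-likelihood F test and the line number as a block. Each SE given for edgeR was derived from this test, as the absolute log2 fold change divided by the square root of F. Adjustment was by Benjamini-Hochberg over all genes. A block was used because the study names a paired analysis, and taking the line number as the pair was a choice made here. Tables and plots used Python 3.11.15, pandas 2.3.3, numpy 2.4.6 and matplotlib 3.10.9. The steps were tested on simulated counts.

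The members and lists were chosen with earlier results of these data known. Named members are those called, the 10 highest by CPM and by CPM per kilobase, the most abundant of each locus and segment type, the 5 with the largest ratio of highest to lowest line, the 3 on each side of the threshold, and list genes called or abundant. IGHV3-21, the TRA V segments not covered by this rule and the IGHD to IGHM ratio were chosen after their values were seen, as were TRGV4, TRGV5, IGHA1, IGLC2, IGKV1OR2-108, TRAJ27, RAG2, DNTT, IGLL5, IRF4 and any other gene whose values are given outside the rule. Alternatives were no block, DESeq2, RLE factors, library size alone, other filters, other count thresholds and each line pair left out.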

Additional observations from a re-analysis of the deposited data

Results flagged for a closer look

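Of 98 groups of 5 lines, 49 members in each condition, 7 held a line far from the other 4 relative to the group's range. A flag rate of 1 in 20 would give about 4.9, but members are not independent and many rest on few counts. TRGC1 and TRGC2 became members through VENins line 5, so their flags there follow from the choice. The number of flags therefore carries no test. IGHV3-21 stood at 14.8 CPM in VENins line 1, against 0.123 to 0.407 CPM in the other VENins lines, and at 3.59 CPM in VENsens line 2, against 0.39 to 0.749 CPM in the other VENsens lines. TRGC1 and TRGC2 stood at 2.48 and 1.7 CPM in VENins line 5 and at 0 in the other VENins lines. IGHV3-20 was at 74.9 CPM in VENins line 5, against 60.6 to 64.6 CPM. IGHM was at 939 CPM in VENsens line 1, against 808 to 843 CPM, and TRAJ27 at 0.63 CPM in VENsens line 2, against 0.199 to 0.217 CPM. The causes were not tested.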

How the results depend on the processing

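With the line number as a block, edgeR called 33 genes and 1 member. Without the replicate block it called 149 genes and 1 member, and DESeq2 called 217 genes with the block and 739 without it, each with 1 member, IGHD. The line numbers did not pair the libraries in the data, with correlations of same-numbered deviations from -0.103 to 0.028. Without a filter on low counts edgeR called 664 of 32884 genes (2.02%) and 7 members. These were TRAV29DV5, TRAV36DV7, IGHD, IGLV4-3, IGLC3, IGKV4-1 and TRAV39. In that fit the SE of IGLV4-3 was 0.07, against 0.14 in the main fit, at the same log2 fold change of 0.41. The calls that the missing filter adds are not read as results. With the filter given the blocked design, added after the values were seen, it called 49 of 17557 genes (0.279%) and 2 members. The member that this filter adds, TRAV36DV7, enters through the VENins lines in which it is high, and its call is not read as a result. With a line pair left out, the count was 6 to 331 genes and 0 to 3 members, and TRAV29DV5 was lost without pair 2, 3 or 5. The 3 members were called without pair 4 and included TRAV36DV7, which again entered through VENins lines. Of 18 named members tested under these alternatives, 232 values were compared with the main fit, and 201 kept their direction and their side of the threshold, while 8 passed it newly, 3 lost it, 7 changed sign and 13 kept their direction but had no adjusted p in DESeq2. The changes of sign were IGHV3-21 at -0.75 (log2) in DESeq2 with the block, IGHM at -0.00 to 0.13 with a pair left out, IGHJ5 at -0.11 to 0.06, TRDV2 at -0.08 to 0.04 and IGHV1OR15-1 at -0.15 to 0.33. The cause was not tested.

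A threshold of 25 counts gave 70 members, 100 counts gave 32, and pseudogenes brought the number to 56. Over protein-coding counts alone the members' share was 0.14% in VENsens and 0.147% in VENins lines. Of the 10 highest members per kilobase, 9 were also among the 10 highest by CPM without length. Depth limits most TR segments and the rarer IG V segments, which rest on few counts per library, and a count of 0 allows 0.106 to 0.145 CPM.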
